A study of Mus musculus with 9 samples.

Results

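Osteoblasts, the cells that lay down bone matrix, also govern the osteoclasts, the cells of the macrophage lineage that resorb bone, through proteins on their surface and in the medium. The 8 genes described here encode such signals: Tnfsf11, Tnfrsf11b, Csf1, Il34, Sema3a, Efnb2, Ephb4 and Cxcl12. They were chosen by name, and all 8 were found among the 40548 genes of the series, of which 40526 were listed at every stage. Their levels were followed in primary mouse calvarial cells, the bone-forming progenitors released by enzyme digestion from the skull of newborn pups, during differentiation in culture.

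Total RNA was sequenced after ribosomal depletion at day 0 without differentiation, at day 4 and at day 7, with 3 libraries per stage and 9 in all. Every library came from calvaria recorded as C57BL/6 (C57BL/6J in the methods), with no transgene named in these records although the study also used a ColI-GFP line, with the age of the pups recorded as postnatal day 2 to 3, and the stages differed in the days spent in mineralization medium, which held ascorbic acid and β-glycerol phosphate. Cells that had mineralized were released with collagenase I before 0.05% trypsin and the others with trypsin alone, so effects of dissociation and of differentiation cannot be told apart, and the methods state stronger trypsin and pups of a wider age. The study calls the libraries of a stage biological replicates, but neither it nor the sample records say whether they came from separate cultures or pools of pups. The permutation p-values below measure the spread between these libraries. Those of the linear models take most of their variance from a trend over all genes, fitted to the same libraries.

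RANKL, the product of Tnfsf11, binds its receptor RANK on osteoclast precursors and drives them to become osteoclasts, and osteoprotegerin, the product of Tnfrsf11b, is a secreted decoy that captures RANKL. M-CSF (Csf1) and IL-34 (Il34) both signal through the receptor CSF1R, on which survival and growth of the precursors depend. Semaphorin 3A restrains osteoclast formation through neuropilin-1 and plexin A receptors, ephrin-B2 and its receptor EphB4 pass signals in both directions between cells in contact, and CXCL12 attracts precursors that carry CXCR4.

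Levels are given as RPKM (reads scaled to gene length and to all reads on genes of the library), which may be compared between genes, and reads are those recovered from the deposited values. Each library had between 7741204 and 14013219 reads on genes at day 0, between 10675858 and 15622755 at day 7 and between 32820610 and 37306090 at day 4, whose libraries lie in a table of their own. Day 7 was therefore tested against day 0, and day 4 was compared by direction only, without a test. Gm42418, a gene that overlaps ribosomal RNA repeats, took 12.0% of the reads in day 0 replicate 3 and 8.12% in day 7 replicate 2, against at most 3.04% in the other libraries. Values that rest on these libraries are also given without them where that matters. Plekhh2 took 7.95% of the reads in day 7 replicate 3, which was kept in that setting. The 6 osteoblast markers (Runx2, Sp7, Col1a1, Alpl, Ibsp and Bglap) summed to between 1801 and 2515 RPKM at day 0, between 5585 and 6384 at day 4 and between 7976 and 10005 at day 7. Most of this sum was Col1a1, with means of 2158, 4716 and 5475 RPKM in order of stage. Ibsp had means of 3.82, 1159 and 2808 RPKM, whereas Runx2 had 8.06, 9.12 and 9.47.

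Between day 0 and day 7, Tnfsf11 and Tnfrsf11b rose, Sema3a, Efnb2 and Ephb4 fell, and Csf1, Il34 and Cxcl12 did not pass the test. All 8 genes passed the filter on low values and were tested with limma, which fits linear models to all genes and moderates their variances. The scale was log2(CPM + 0.5), where CPM are reads scaled to all reads on genes of the library. The 2 genes called higher stand beside 12.6% of the 12712 genes tested, and the 3 called lower beside 18.6%, at a Benjamini-Hochberg adjusted p under 0.05. The median log2 fold change was −0.22 over the 8 genes and −0.11 over all genes tested. Without both libraries rich in Gm42418, 1 of the 8 genes was called higher and 4 lower, since Tnfrsf11b lost its call and Csf1 gained one. In that setting 13.5% of all genes were called higher and 33.2% lower, and the median of all genes was −0.18. In bulk RNA, a change in the share of cells that express a gene and a change in RNA per cell cannot be told apart.

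**Figure D1:**
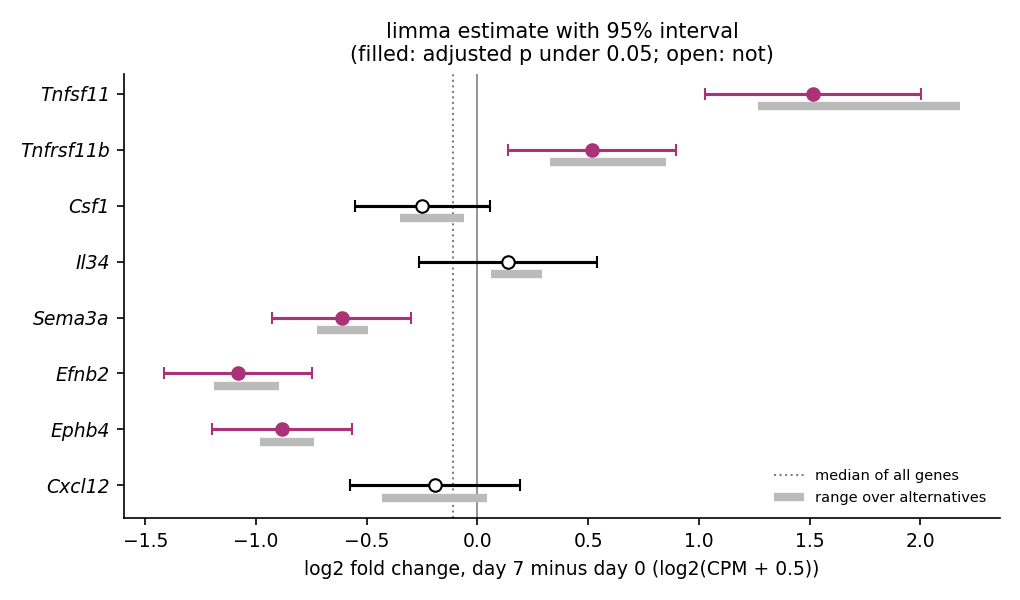
Log2 fold change from day 0 to day 7 on the log2(CPM + 0.5) scale for each of the 8 genes, with the 95% interval of limma as a thin bar and the range over the alternative analyses as a grey band. Filled points passed an adjusted p of 0.05, and the dotted line at −0.11 is the median of all genes tested. Tnfsf11 lies at 1.52 and Efnb2 at −1.08, both with intervals away from 0, whereas those of Csf1, Il34 and Cxcl12 cross 0.

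By direction, 3 of the 8 genes (Tnfsf11, Csf1 and Il34) had every day 4 library above every day 0 library, which was so for 21.6% of the 12782 genes with a mean of at least 1 CPM over the 9 libraries. Efnb2 and Ephb4, 2 of the 8, had every day 4 library below every day 0 library, against 21.9% of those genes. From day 4 to day 7 none of the 8 genes lay above in every library, where 13.6% of genes did. In contrast, 5 (Tnfsf11, Csf1, Sema3a, Efnb2 and Ephb4) lay below in every library, beside 25.0% of genes. Between libraries of the same replicate number, a comparison chosen after the values were seen, all 8 genes were lower at day 7 than at day 4 in all 3 pairs, as were 38.0% of genes. Thus Tnfsf11 and Csf1 had their highest levels at day 4, as did Il34, Tnfrsf11b and Sema3a in the mean, with values that overlapped another stage, and Efnb2 and Ephb4 stepped down at each stage.

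**Figure D2:**
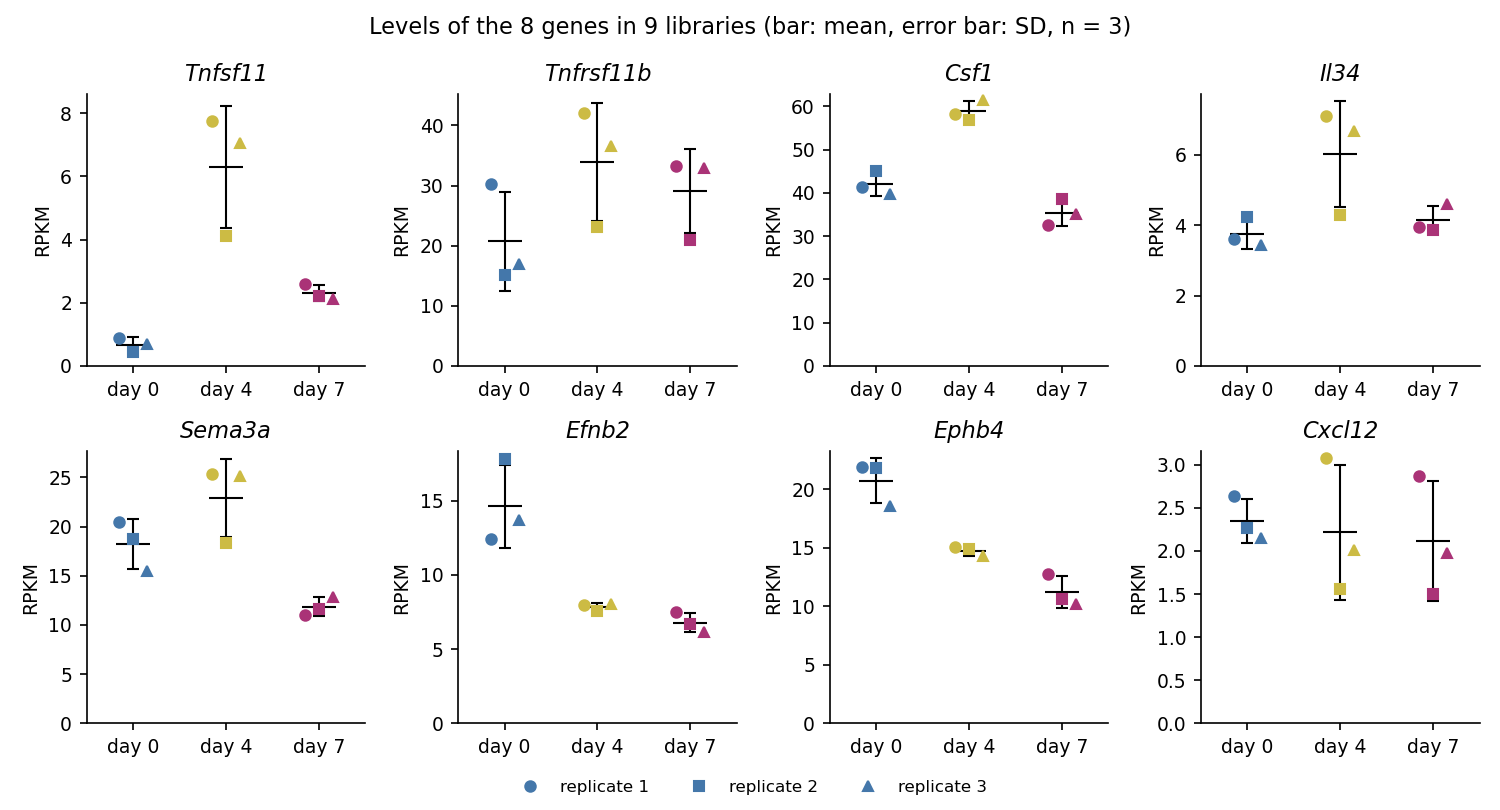
RPKM of the 8 genes in each library at day 0, day 4 and day 7, 1 panel per gene, with a circle, square or triangle for replicates 1, 2 and 3 and the mean with its SD in black (n = 3). Tnfsf11 stands highest at day 4 (4.10 to 7.73 RPKM), Efnb2 and Ephb4 stand highest at day 0, and the values of Cxcl12 overlap at all 3 stages.

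Tnfsf11 (ENSMUSG00000022015), which encodes RANKL, is a protein-coding gene at chr14:78277445-78308043 of GRCm38 on the reverse strand. It was low before differentiation, at 0.893, 0.449 and 0.693 RPKM in day 0 replicates 1 to 3, which rest on 28, 12 and 12 reads. The day 4 libraries had 7.73, 4.10 and 7.06 RPKM, and those of day 7 had 2.59, 2.22 and 2.12. The 3 stages did not overlap, with day 4 above day 7 and day 7 above day 0 in every library. In order of stage the means were 0.678 ± 0.223, 6.30 ± 1.93 and 2.31 ± 0.247 RPKM (SD, n = 3 each). The day 4 mean was thus 9.28-fold that of day 0 and 2.73-fold that of day 7. From day 0 to day 7 Tnfsf11 rose by 1.52 on the log2 scale (standard error 0.24, 95% interval 1.03 to 2.00, limma adjusted p = 1.85e-06). In 3.31% of the genes tested the rise was larger. The call held in all 19 alternatives in which the gene was tested, with log2 fold changes from 1.27 to 2.18.

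Tnfrsf11b (ENSMUSG00000063727), which encodes osteoprotegerin, lies at chr15:54250619-54278484 of GRCm38 on the reverse strand. Its transcripts outnumbered those of Tnfsf11 per length in every library. It had 30.2, 15.2 and 16.9 RPKM in the day 0 libraries, 42.1, 23.1 and 36.6 at day 4, and 33.2, 21.0 and 32.9 at day 7. The values overlapped between all stages, with day 0 replicate 1 high and replicate 2 low at both day 4 and day 7. The means were 20.8 ± 8.22, 33.9 ± 9.80 and 29.0 ± 6.96 RPKM (SD, n = 3 each). From day 0 to day 7 it rose by 0.52 on the log2 scale (standard error 0.19, 95% interval 0.14 to 0.90, limma adjusted p = 0.0302), whereas an exact permutation test over the libraries gave a two-sided p of 0.2. The call was lost in 10 of 20 alternatives, among them those without day 0 replicate 2 (0.33), day 0 replicate 3 (0.41), day 7 replicate 1 (0.41) or day 7 replicate 3 (0.41), and over all alternatives the limma, edgeR or DESeq2 adjusted p ranged from 1.08e-04 to 0.227.

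The balance of RANKL to its decoy was expressed as the ratio of Tnfsf11 to Tnfrsf11b RPKM within each library, which the scaling of the library does not touch. At day 0 the ratio was 0.0296, 0.0296 and 0.0410 in replicates 1 to 3. It stood at 0.184, 0.178 and 0.193 at day 4 and at 0.0779, 0.106 and 0.0643 at day 7. The stages did not overlap, and transcripts of the decoy exceeded those of RANKL in all 9 libraries, by 24.4-fold to 33.8-fold at day 0, by 5.19-fold to 5.63-fold at day 4 and by 9.46-fold to 15.5-fold at day 7. Counting error alone gave exact 95% intervals of 0.0152 to 0.0522 for day 0 replicate 2, the widest relative to its ratio along with that of day 0 replicate 3 (0.0210 to 0.0725), and of 0.168 to 0.201 for day 4 replicate 1. Without molecular identifiers, such intervals hold the error of counting and no other.

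The mean ratios of the 3 stages in turn were 0.0334 ± 0.00658, 0.185 ± 0.00752 and 0.0826 ± 0.0211 (SD, n = 3 each). Between day 0 and day 7 the mean log2 ratio was higher by 1.29 (standard error 0.26), a 2.45-fold difference of the geometric means, and each day 7 ratio lay above each day 0 ratio. The exact permutation test gave a two-sided p of 0.1, the smallest that 3 libraries against 3 allow. The day 4 ratio was 5.59-fold that of day 0 and 2.28-fold that of day 7, both without a test. At day 4, replicate 2 had the lowest level of both genes, yet its ratio was close to those of the other day 4 libraries. Adding 1 RPKM to both levels, which exceeds every day 0 level of Tnfsf11, reduced the log2 difference between day 0 and day 7 to 0.49 and made the stages overlap.

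**Figure D3:**
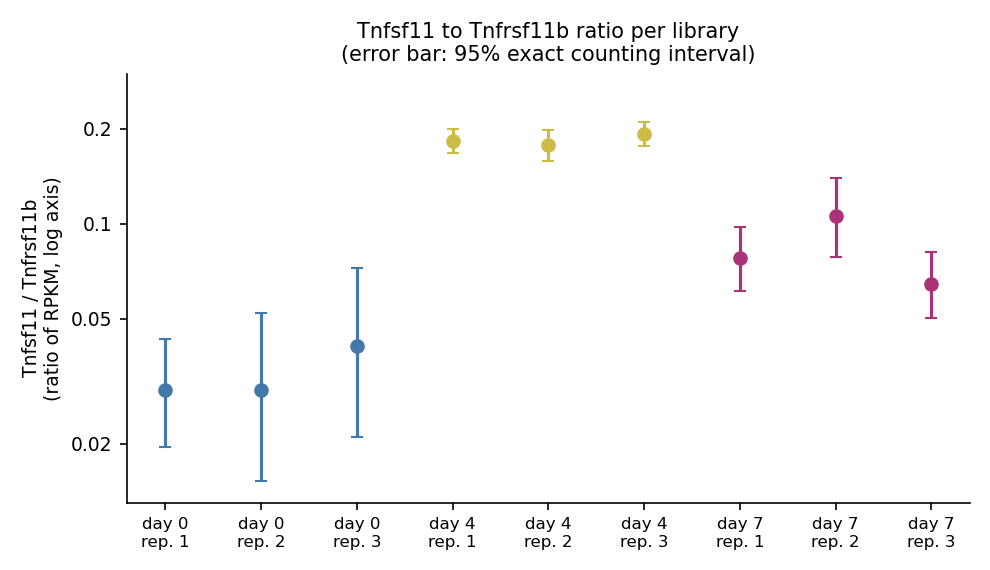
Ratio of Tnfsf11 to Tnfrsf11b RPKM in each of the 9 libraries, on a log axis, with exact 95% intervals for counting error as bars. The day 4 libraries lie between 0.178 and 0.193, above those of day 7 (0.0643 to 0.106), which lie above those of day 0 (0.0296 to 0.0410).

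Csf1 (ENSMUSG00000014599; chr3:107741048-107760469 of GRCm38, reverse strand) encodes M-CSF and had the highest mean level of the 8 genes at each stage, although at day 7 its values overlapped those of Tnfrsf11b. The day 0 libraries had 41.3, 45.0 and 39.7 RPKM. The level was 58.2, 57.0 and 61.5 RPKM at day 4, above every other library, and 32.5, 38.6 and 35.0 at day 7, below every day 0 library. The means were 42.0 ± 2.73, 58.9 ± 2.36 and 35.4 ± 3.02 RPKM (SD, n = 3 each), so the day 4 mean was 1.67-fold that of day 7. Between day 0 and day 7 the log2 fold change of −0.25 did not pass (95% interval −0.55 to 0.06, limma adjusted p = 0.222), and the exact permutation p was 0.1, the smallest possible. Without day 0 replicate 3 it passed, at −0.29 (limma adjusted p = 0.0305), and likewise without both libraries rich in Gm42418, at −0.35 (limma adjusted p = 0.0101).

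Il34 (ENSMUSG00000031750; chr8:110741829-110805924 of GRCm38, reverse strand), the other ligand of CSF1R, was lower. Its libraries had 3.60, 4.22 and 3.43 RPKM at day 0, 7.10, 4.29 and 6.67 at day 4, and 3.96, 3.87 and 4.60 at day 7. Day 4 replicate 2 was barely above the highest day 0 library, and the other day 4 libraries stood clear of both other stages. The log2 fold change between day 0 and day 7 was 0.14 (95% interval −0.27 to 0.54, limma adjusted p = 0.650), and no alternative called it. Antisense genes on the opposite strand overlap 4.95% of its exon bases, and as the sources used here do not say whether counting used strand, reads of the overlap cannot be assigned. The ratio of Csf1 to Il34 RPKM was 11.2 ± 0.502, 10.2 ± 2.68 and 8.60 ± 1.22 in order of stage (SD, n = 3 each).

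Sema3a (ENSMUSG00000028883; chr5:13125414-13602565 of GRCm38, forward strand) encodes semaphorin 3A and was reduced at day 7. It had 20.5, 18.7 and 15.5 RPKM at day 0, 25.3, 18.3 and 25.1 at day 4, and 11.0, 11.6 and 12.9 at day 7. All day 7 libraries lay below all others, whereas day 4 overlapped day 0 through replicate 2. From day 0 to day 7 it fell by 0.61 on the log2 scale (standard error 0.16, 95% interval −0.93 to −0.30, limma adjusted p = 0.00172), and the call held in all 20 alternatives (−0.73 to −0.49).

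The CXCL12 gene (Cxcl12, ENSMUSG00000061353; chr6:117168535-117181367 of GRCm38, forward strand) was low and did not separate the stages. It had 2.63, 2.27 and 2.15 RPKM at day 0, 3.08, 1.55 and 2.01 at day 4, and 2.86, 1.50 and 1.98 at day 7. Replicate 1 was the highest library of each stage, and every pair of stages overlapped, although each day 7 library was slightly below the day 4 library of its number. The log2 fold change between day 0 and day 7 was −0.19 (95% interval −0.58 to 0.19, limma adjusted p = 0.483). No alternative called it, and its sign turned with quality weights per library (0.04) and without day 7 replicate 2 (0.02).

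Efnb2 (ENSMUSG00000001300; chr8:8617434-8661242 of GRCm38, reverse strand) encodes ephrin-B2, a ligand held in the membrane, and its level fell early. It had 12.4, 17.8 and 13.7 RPKM at day 0, 7.94, 7.59 and 8.03 at day 4, and 7.48, 6.71 and 6.18 at day 7. The day 0 libraries lay above all others, and the day 7 libraries lay just below those of day 4. The means were 14.6 ± 2.81, 7.85 ± 0.233 and 6.79 ± 0.653 RPKM (SD, n = 3 each), a day 0 level 1.86-fold that of day 4. From day 0 to day 7 Efnb2 fell by 1.08 on the log2 scale (standard error 0.17, 95% interval −1.41 to −0.75, limma adjusted p = 7.32e-07). In 3.29% of the genes tested the fall was larger, and the call held in all 20 alternatives (−1.19 to −0.90).

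Ephb4 (ENSMUSG00000029710; chr5:137350109-137378669 of GRCm38, forward strand) encodes the receptor tyrosine kinase EphB4 that binds ephrin-B2. It had 21.9, 21.8 and 18.6 RPKM at day 0, 15.1, 14.9 and 14.3 at day 4, and 12.8, 10.6 and 10.2 at day 7. The stages did not overlap, and the level was lower at each later stage. The means were 20.8 ± 1.91, 14.7 ± 0.398 and 11.2 ± 1.39 RPKM (SD, n = 3 each). From day 0 to day 7 Ephb4 fell by 0.88 on the log2 scale (standard error 0.16, 95% interval −1.20 to −0.57, limma adjusted p = 1.25e-05), in all 20 alternatives (−0.98 to −0.74). Receptor and ligand thus fell together, and the ratio of Ephb4 to Efnb2 RPKM was 1.45 ± 0.282, 1.88 ± 0.0908 and 1.65 ± 0.0656 in order of stage (SD, n = 3 each). Over the 9 libraries the Pearson correlation of their log2(CPM + 0.5) was 0.92, where the libraries of a stage share their stage and day 4 also its depth.

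The promoters of Tnfsf11, which rose, and of Efnb2 and Ephb4, which fell, are shown as 300 bases around the annotated start of the gene, most of them before it. Of the 8 genes, 6 had a promoter sequence from RefSeq (GRCm38.p6), the exceptions being Tnfrsf11b and Il34. These 3 promoters were the ones among the 6 that held CCAAT, the core letters bound by the factor NF-Y, on either strand (CCAAT or ATTGG), which are in capitals. They lie at chr14:78307994-78308293 on the reverse strand for Tnfsf11, at chr8:8661193-8661492 on the reverse strand for Efnb2 and at chr5:137349859-137350158 on the forward strand for Ephb4, each written 5′ to 3′ in the direction of the gene.
Tnfsf11: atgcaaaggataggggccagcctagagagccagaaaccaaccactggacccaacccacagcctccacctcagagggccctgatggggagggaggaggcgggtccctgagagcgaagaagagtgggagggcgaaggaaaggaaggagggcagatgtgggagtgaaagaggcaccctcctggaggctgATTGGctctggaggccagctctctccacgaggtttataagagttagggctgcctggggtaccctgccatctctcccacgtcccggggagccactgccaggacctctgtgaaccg
Efnb2: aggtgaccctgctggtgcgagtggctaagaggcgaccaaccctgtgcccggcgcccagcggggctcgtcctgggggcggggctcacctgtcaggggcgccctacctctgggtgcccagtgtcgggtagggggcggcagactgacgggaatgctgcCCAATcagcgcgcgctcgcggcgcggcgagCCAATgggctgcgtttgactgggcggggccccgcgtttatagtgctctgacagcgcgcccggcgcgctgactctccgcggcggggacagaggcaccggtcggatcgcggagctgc
Ephb4: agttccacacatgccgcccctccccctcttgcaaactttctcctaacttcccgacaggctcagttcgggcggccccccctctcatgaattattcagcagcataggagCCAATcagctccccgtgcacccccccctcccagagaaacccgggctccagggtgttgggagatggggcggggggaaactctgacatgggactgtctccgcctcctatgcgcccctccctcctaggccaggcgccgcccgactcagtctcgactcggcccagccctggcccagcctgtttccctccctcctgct
Counted from the start, the letters begin at −64 in Tnfsf11, on the opposite strand, at −95 and −65 in Efnb2, and at −143 in Ephb4. CCAAT occurred on either strand in 37.4% of the 32851 promoters of this length, and here in a gene that rose and in genes that fell. TATAAA, the letters of the TATA box, occurred on either strand in 13.6% of all promoters and in those of Tnfsf11 and Efnb2. In both the match lies on the opposite strand, so that the direction of the gene reads TTTATA, from −32 in Tnfsf11 and −30 in Efnb2. In Tnfsf11 the direction of the gene also reads TATAAG, which overlaps this match and was not among the searched letters. The match therefore does not give the direction of a TATA box. TGTGGT, the core of RUNX sites, occurred in 16.8% of all promoters and among the 6 in that of Sema3a, on the forward or reverse strand in each search. The Sema3a window (chr5:13396534-13396833) surrounds the RefSeq start, which lies inside the gene as placed above. The searched letters do not overlap one another, and a match describes the sequence and is not a measured site.

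Ordered by mean RPKM, Csf1 stood first at day 0, clear of Ephb4, Tnfrsf11b, Sema3a and Efnb2, each of which overlapped its neighbour in the order, and below them followed Il34, Cxcl12 and Tnfsf11, with no overlap between neighbours. At day 4 Csf1 was followed without overlap by Tnfrsf11b and Sema3a, which overlapped, then Ephb4, then Efnb2, Tnfsf11 and Il34, each overlapping its neighbour, and Cxcl12 came last. Tnfsf11 thus moved from the lowest place to the sixth. At day 7 Csf1 and Tnfrsf11b overlapped at the top, Sema3a and Ephb4 overlapped next, Efnb2 and Il34 stood apart, and Tnfsf11 and Cxcl12 overlapped at the bottom. These orders depend on the gene lengths behind the RPKM, which were 6470 bp for Sema3a and 4324 bp for Efnb2, against 13868 and 6855 bp of merged exons in a later annotation of the same assembly.

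The genes most like each of the 8 were found by Pearson correlation of log2(CPM + 0.5) over the 9 libraries among 12782 genes, as a description in which the libraries share stage and, for day 4, table and depth. Tnfsf11 was most like Ankrd1 (r = 0.992), Angptl2 (0.985) and Mgp (0.984), the last encoding matrix Gla protein, an inhibitor of mineralization. Ankrd1 had mean levels of 2.06, 26.1 and 9.24 RPKM at days 0, 4 and 7, the shape of Tnfsf11. Csf1 was most like Snx9 (0.989), Gng2 (0.983) and Ndst3 (0.968), and Sema3a was most like 1700034J05Rik (0.986), Foxf2 (0.975) and Birc3 (0.973). For Efnb2 the closest were Fnbp1 (0.983), Mn1 (0.981) and Sh3rf3 (0.980), and for Ephb4 Tsc22d2 (0.992), Rtl3 (0.990) and Nlrc5 (0.989). The likeness was looser for Tnfrsf11b, with Cpa4 (0.971), Shroom1 (0.957) and Mapk12 (0.949), and for Il34, with Slc35a4 (0.947), Apcdd1 (0.945) and Mcub (0.940). It was lowest for Cxcl12, with Slc4a10 (0.897), Rac1 (0.893) and Cd55 (0.890).

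The receptors and other partners that bind these signals were followed in a list of 20 genes, of which 18 were tested, 4 were called higher and 10 lower at day 7. Of all genes tested, 12.6% were called higher and 18.6% lower. The median log2 fold change was −0.48 in the list and −0.11 over all genes. Leaving out day 7 replicate 3 reduced the lower genes to 6. Tnfrsf11a, which encodes RANK, was at 0.340 ± 0.0709, 0.315 ± 0.0317 and 0.354 ± 0.140 RPKM at days 0, 4 and 7 (SD, n = 3 each). Its fold change on the log2 scale was 0.02 (limma adjusted p = 0.970), and the sign depended on the libraries used. Lgr4, another receptor of RANKL, had 14.0 ± 4.10, 8.09 ± 0.905 and 11.9 ± 1.85 RPKM, and its change of −0.20 on the log2 scale did not pass (limma adjusted p = 0.405).

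For M-CSF and IL-34, Csf1r rose from 0.959 ± 0.377 through 1.88 ± 0.0394 to 1.92 ± 0.264 RPKM (log2 fold change 0.98, limma adjusted p = 4.66e-04). Ptprz1, a phosphatase of the membrane that also binds IL-34, rose from 0.232 ± 0.0351 through 10.9 ± 3.53 to 23.2 ± 3.99 RPKM (log2 fold change 6.30, limma adjusted p = 4.29e-32). Both receptors of CXCL12 rose between day 0 and day 7, Ackr3 by 1.88 (limma adjusted p = 8.91e-12) and Cxcr4, at 0.451 ± 0.145 RPKM at day 0, by 0.95 (limma adjusted p = 0.00564) on the log2 scale. The calls of Csf1r, Ptprz1 and Ackr3 held in all 20 alternatives. Cxcr4 rests on only 4 to 13 reads per library at day 0. Its call held in all 19 alternatives that tested it, with a limma, edgeR or DESeq2 adjusted p of up to 0.0497.

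Genes for receptors of semaphorin 3A were lower at day 7 than at day 0, as Sema3a was. Nrp1 fell by 1.07 and Plxna1 by 0.88 on the log2 scale (limma adjusted p = 5.15e-07 and 9.62e-06), and the other plexin A genes Plxna2, Plxna3 and Plxna4 were called lower too. These 5 genes were singled out after their values were seen, and their calls stand beside 18.6% of all genes called lower. Each was below 0 in every alternative that tested it. Of them 3 to 5 were called lower, while lower calls over all genes ranged from 1521 to 4699. Plxna2 kept its call in 16 of 20 alternatives. Plxna4, with means of only 0.324 RPKM at day 0 and 0.169 at day 7, kept it in 16 of 19. The time courses differed from that of Sema3a. Nrp1, Plxna1, Plxna2 and Plxna3 already lay below day 0 in every day 4 library, beside 21.9% of genes. Plxna4 and Sema3a overlapped day 0 at day 4. The ephrin-B and Eph genes that passed the filter on low values, singled out in the same way, comprise Efnb2, Ephb4, Efnb1, Efnb3, Ephb2, Ephb3, Ephb6 and Epha4. Of these 8, 7 were called lower and Efnb1 was not (−0.15), where 18.6% of all genes were called lower. All 8 were below 0 on the log2 scale, as was the median of all genes (−0.11). Ephb1 was measured, at 0.0290 to 0.0839 RPKM in mean level, and did not pass the filter. Ephb6, an Eph receptor without kinase activity, fell by 0.94 (limma adjusted p = 6.20e-05). The weakest call was Efnb3 (limma adjusted p = 0.0478), whose values overlapped between day 0 and day 7. Its call held in only 6 of 19 alternatives, and that of Ephb2 in 15 of 20. Across the alternatives 4 to 7 of the family were called lower, the 4 being without day 0 replicate 2, and none was above 0.

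**Figure D4:**
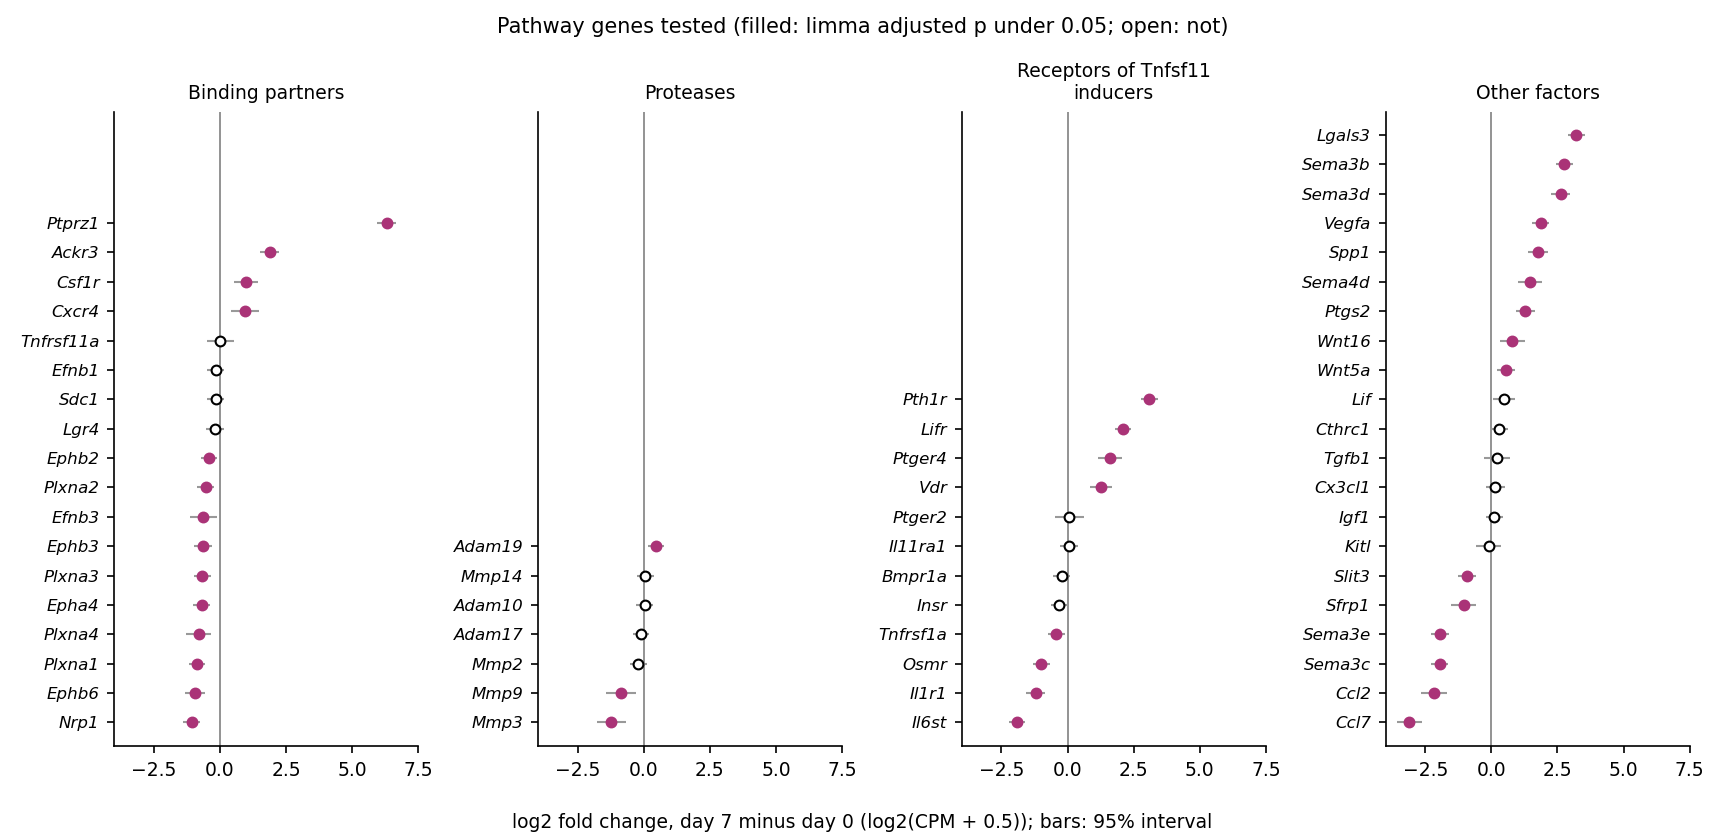
Log2 fold change from day 0 to day 7 on the log2(CPM + 0.5) scale, with 95% intervals, for the 58 tested genes of 4 lists around the 8 signals. Filled points passed an adjusted p of 0.05. Among binding partners, Ptprz1 (6.30) stands apart on the higher side and 10 genes were called lower, down to Nrp1 (−1.07).

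Proteases that release or cut these signals gave 1 call higher and 2 lower among 7 tested of 8 listed, beside 12.6% and 18.6% of all genes tested. Their median log2 fold change was −0.11, as over all genes. Adam10, Adam17 and Mmp14, sheddases of membrane proteins, had log2 fold changes of 0.03, −0.11 and 0.06 and did not pass. Adam19 rose by 0.47 (limma adjusted p = 0.0159), a call lost without day 0 replicate 2 (0.46) or any of day 7 replicates 1, 2 and 3 (0.42, 0.48 and 0.51). Mmp3, which was at 3.38 ± 0.959 RPKM at day 4, fell by 1.22 between day 0 and day 7 (limma adjusted p = 5.14e-04). Mmp9 fell by 0.86 (limma adjusted p = 0.0136) on 8 to 26 reads per library at day 7, and its call was lost in 10 alternatives, among them those without day 0 replicate 2 (−0.72), day 0 replicate 3 (−0.80) or day 7 replicate 1 (−0.57).

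Several hormones and cytokines induce Tnfsf11 in osteoblasts. Of 13 genes for their receptors, 12 were tested, 4 were called higher and 4 lower, beside the shares of 12.6% and 18.6% over all genes. Their median log2 fold change of −0.09 lay next to that of all genes (−0.11). Pth1r, the receptor of parathyroid hormone, rose from 31.6 ± 6.24 through 98.0 ± 9.54 to 268 ± 35.6 RPKM (SD, n = 3 each; log2 fold change 3.09, limma adjusted p = 1.61e-21). Lifr, the receptor of leukaemia inhibitory factor, rose by 2.10, Ptger4, a prostaglandin E2 receptor, by 1.59, and Vdr, the vitamin D receptor, by 1.27. In contrast Il6st, which encodes gp130, the shared signalling chain of this cytokine family, fell from 73.2 ± 5.77 through 28.4 ± 2.91 to 19.5 ± 0.297 RPKM (log2 fold change −1.90, limma adjusted p = 1.70e-14). Il1r1, the interleukin-1 receptor, fell by 1.21 and Osmr, the oncostatin M receptor, by 0.99. Pth1r was highest at day 7 in mean level, whereas Tnfsf11 was highest at day 4.

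Among 25 other factors of the exchange between cells of the osteoblast lineage and osteoclasts, 21 were tested. Of these, 9 were called higher and 6 lower, where 12.6% and 18.6% of all genes were. The median log2 fold change was 0.30, and −0.11 over all genes. Lgals3 (galectin-3) rose by 3.22, with 15.1 ± 1.09, 156 ± 13.4 and 143 ± 17.3 RPKM in order of stage (SD, n = 3 each). The chemokines Ccl7 and Ccl2, which attract monocytes, fell by 3.10 and 2.18 on the log2 scale. Ccl7 was still at 15.2 ± 1.19 RPKM at day 4 and then at 1.34 ± 0.549 at day 7, on 9 to 24 reads. Class 3 semaphorins, the secreted family of Sema3a, moved both ways, since Sema3b and Sema3d rose by 2.76 and 2.62 whereas Sema3c, Sema3e and Sema3a fell, Sema3c by 1.96. These 2 rises and 3 falls were called in every alternative. Ptgs2, the inducible enzyme of prostaglandin synthesis, was at 10.8 ± 2.88, 96.0 ± 11.9 and 26.4 ± 6.50 RPKM, with its highest level at day 4 like Tnfsf11. Over the 4 lists, 18 of 58 tested genes were called higher and 22 lower, again beside 12.6% and 18.6% of all genes, and the other 8 of the 66 listed genes did not pass the filter on low values.

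Markers of other cells moved with these stages, and their part in the levels above was not tested. Of the 10 osteoclast markers 6 had over 3 reads in every library, and together they summed to between 113 and 146 RPKM at day 0, between 254 and 262 at day 4 and between 249 and 258 at day 7, with Dcstamp, needed for fusion of the cells, at no more than 3 reads in any library. Most of this sum was Ctsk (cathepsin K), with means of 120 ± 18.0, 231 ± 2.99 and 232 ± 6.24 RPKM, whereas Nfatc1 was at 3.10 ± 0.338, 3.45 ± 0.382 and 3.34 ± 0.473. Acp5 was at 0.745 ± 0.323, 7.60 ± 0.835 and 6.59 ± 1.50 RPKM and Atp6v0d2 at 0.205 ± 0.0133, 1.18 ± 0.287 and 0.682 ± 0.189. Both lay above day 0 in every later library, whereas Mmp9 lay below day 0 in every day 7 library. Itgb3, Nfatc1, Calcr, Ocstamp, Dcstamp and Oscar overlapped between day 0 and day 7. For the 10 macrophage markers, which include Csf1r and of which 8 had over 3 reads in every library, the sums were 46.3 to 78.7, 90.6 to 101 and 87.6 to 117 RPKM. Most of each sum was Lyz2, with means of 47.7 ± 14.3, 73.4 ± 3.15 and 79.4 ± 11.7 RPKM. The 5 osteocyte markers summed to between 0.365 and 0.523 RPKM at day 0, between 78.0 and 111 at day 4 and between 71.2 and 141 at day 7. At days 4 and 7 most of this sum was Dmp1, with means of 0.196 ± 0.0736, 80.2 ± 15.9 and 82.8 ± 34.2 RPKM in order of stage. Sost rose only after day 4, with 0.0343 ± 0.0317, 0.0886 ± 0.0512 and 4.95 ± 1.59 RPKM, and Fgf23 had no more than 3 reads in any library. Endothelial markers, whose lineage is a source of Cxcl12 and Efnb2, summed to at most 1.79 RPKM in any library, with Emcn and Tie1 at 0 throughout. Lymphocyte markers, whose lineage can make RANKL, summed to at most 0.269 RPKM, with Cd3g and Ms4a1 at 0 throughout. The 6 cartilage markers summed to between 152 and 439 RPKM at day 0, between 52.2 and 164 at day 4 and between 48.1 and 125 at day 7. Most of it was Col2a1, with means of 239 ± 157, 81.1 ± 57.6 and 53.5 ± 34.3 RPKM, whereas Col10a1 went from 0.759 ± 0.0559 to 2.61 ± 0.986 RPKM between day 0 and day 7. The 6 markers of marrow stromal and fat cells summed to between 26.2 and 47.2 RPKM over all libraries, with Adipoq at no more than 3 reads. Among them Foxc1 had means of 33.3 ± 6.47, 18.5 ± 2.79 and 18.7 ± 3.76 RPKM and Lepr of 2.07 ± 0.652, 6.30 ± 0.380 and 9.83 ± 0.385 RPKM, in opposite directions (SD, n = 3 each).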

How the data were processed

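RNA of 9 libraries was depleted of ribosomal RNA and sequenced by the authors, who aligned the reads to GRCm38 with STAR 2.0.4b and counted them per gene with featureCounts, per the labels and the methods. The deposited values are CPM, which the authors scaled to each library's total, and RPKM, which the authors also divided by gene length. Day 0 and day 7 share tables, and day 4 has its own. Columns were mapped to stages by the sample records, genes were joined by Ensembl identifier, and genes listed again with identical values (276 and 273 lines) were used once. Divided by the value of 1 read, 100% of the CPM were whole within 0.05, so reads were recovered from them, 7741204 to 37306090 per library. Replicates had Spearman correlations of 0.966 to 0.978 and differed by more than counting error, with a chi-square of 11.7 to 203 per degree of freedom.

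For day 7 against day 0, limma 3.58.1 (R 4.3.3) was fitted with a trend of variance on level to log2(CPM + 0.5). A gene entered when its CPM averaged 1 or more in these 6 libraries, which kept 12712 genes and left out 11075 genes with reads. With this pseudocount the fold changes of low genes are understated. Adjusted p-values are Benjamini-Hochberg over all genes tested, with a threshold of 0.05. The prior for the variances weighed 42.9 degrees of freedom and each gene's own residuals 4, so the trend over all genes sets most of a p-value. The ratio of Tnfsf11 to Tnfrsf11b was tested with an exact two-sided permutation test over libraries, with exact binomial intervals per library. Scripts were tested on simulated data. Alternatives were other pseudocounts, filters and scalings, the RPKM table, edgeR 4.0.16, DESeq2 1.42.0 and voomWithQualityWeights on the recovered reads, robust variances, a replicate block and the fits without each library.

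The 8 genes, the lists around them and the tests were chosen with earlier results of these data known. Named beside the 8 genes are the 3 genes most correlated with each, 7 receptors, and up to 3 rises and 3 falls per list, and other genes were named after their values were seen. Promoters and motif counts come from RefSeq, and gene positions from GENCODE M21 on GRCm38.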

Additional observations from a re-analysis of the deposited data

How the results depend on the processing

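Efnb2, Ephb4 and Sema3a kept their calls in 20 of 20 alternatives and Tnfsf11 in 19 of 19, as it did not pass a filter of a mean CPM of at least 5. Tnfrsf11b lost its call with no filter (log2 fold change 0.52), the RPKM table (0.51), edgeR (0.59), DESeq2 (0.60), without day 0 replicate 3 and with median-of-ratios scaling (0.63), and without both libraries rich in Gm42418 (0.62). The last 2 settings were chosen after seeing the data. Without each library in turn Tnfrsf11b ranged from 0.33 to 0.82 and Csf1 from −0.31 to −0.19. Csf1 passed as lower without both libraries rich in Gm42418 (−0.35) and without day 0 replicate 3 (−0.29). The number of the 8 genes called higher was therefore 1 with no filter, the RPKM table, edgeR, DESeq2, the filter at 5 CPM, which drops Tnfsf11, and both settings chosen after seeing the data, and it was 1 to 2 without each library. Cxcl12 turned sign with voomWithQualityWeights (0.042) and ranged from −0.43 to 0.024 without each library. Tnfrsf11a turned sign with voomWithQualityWeights (−0.030) and without both libraries rich in Gm42418 (−0.38), and ranged from −0.23 to 0.15 without each library, and Lgr4 ranged from −0.38 to 0.023. The difference between day 7 and day 0 in the log2 ratio of Tnfsf11 to Tnfrsf11b was 0.49 with a pseudocount of 1 RPKM. It was 1.10 to 1.46 without each library. Apart from what a setting removes by construction, the cause was not tested.

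Over all genes, 1602 were called higher and 2369 lower as deposited, and 40.3% of the calls were higher. The higher calls numbered 2827 with median-of-ratios scaling (51.8% of calls), 2773 with TMM, 2818 with edgeR, 2581 with DESeq2, 3148 with voomWithQualityWeights, and 2832 without day 0 replicate 3 and with median-of-ratios scaling. The lower calls numbered 4242 without both libraries rich in Gm42418 and 1521 to 4699 without each library, the highest being without day 0 replicate 3 (25.8% of calls higher). Median-of-ratios scaling moved the median of all genes from −0.11 to −0.01.

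Replicate numbers are shared between the stages. For same-numbered libraries of day 0 and day 7, deviations from the stage mean had correlations of −0.02, −0.17 and −0.44. Those of different numbers ranged from −0.26 to 0.35, the highest between the libraries rich in Gm42418. Deviations of 3 libraries from their own mean are not independent, so these correlations cannot decide whether the libraries were paired. Between day 4 and day 7 the correlations were 0.10, 0.28 and 0.33 for the same number and −0.33 to 0.02 for different numbers. These stages were deposited separately and were not tested. With the replicate block, 2 of the 8 genes were called higher and 3 lower, 1463 of all genes were higher and 1950 lower, 18 pathway genes were higher and 19 lower, and the paired exact permutation p of the ratio was 0.25, the smallest that 3 pairs allow. At day 0, Tnfsf11 rests on 12 to 28 reads per library, which limits the precision of its level and of the ratio.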
